A study of Mus musculus with 24 samples.

Results

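Of 24195 gene symbols counted in female reproductive and neuroendocrine tissues of the mouse, 10 are described here: the ligand genes Il34 and Csf1, the gene of their shared receptor, Csf1r, the complement genes C1qa, C1qb and C1qc, and the macrophage and microglia markers Aif1, Cx3cr1, Mrc1 and Cd68. They were found by symbol, and all 10 had a row in every table and passed the filter on low counts in every tissue. The list was selected on measured values, since the levels and KO over WT differences of several of these genes in the same 24 libraries were known when it was drawn up. All levels, fold changes and counts of these 10 genes are therefore a description of these libraries, and nothing is supported with them.

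The 8 groups were Kdm4a knock-out (KO) and wild-type (WT) ovary, uterus, pituitary and hypothalamus, with 3 libraries in each. All were whole tissues of mated C57BL6 females aged 8 to 10 weeks at 2.5 days post coitus, a stage before implantation. The allele, the part of Kdm4a that was deleted and whether tissues with the same number came from 1 animal are not given in the labels. RNA-seq of polyadenylated RNA gave 13201596 to 23865382 counts per library, so 1 count was worth 0.0419 to 0.0757 CPM by library totals alone. Levels are given in CPM after TMM scaling, which adjusts counts for the depth of each library and for a scaling factor between libraries. On that scale 1 count can be worth more, as in WT pituitary library 1, where 11 counts of Il34 stood at 0.990 CPM.

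IL-34 and CSF1 are cytokines that bind 1 receptor, CSF1R, on monocytes, tissue macrophages and microglia, which depend on it for survival and renewal. In the brain neurons make much of the IL-34, while CSF1 comes from stromal, endothelial and glial cells. In the uterus and ovary CSF1 is known for supporting the macrophages of the endometrium, the follicle and the corpus luteum. C1q, the recognition unit of the classical complement route, is made mainly by macrophages and microglia.

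The labels were checked first on Kdm4a itself. In the uterus its level was 58.8, 59.1 and 63.96 CPM in KO-labelled libraries and 89.5, 88.7 and 78.9 CPM in WT libraries, without overlap, and the difference did not pass the test (log2 fold change -0.50, edgeR quasi-likelihood adjusted p = 0.122). In the ovary (33.4 to 79.1 CPM in KO-labelled and 69.9 to 74.9 CPM in WT), pituitary (47.03 to 69.2 and 50.03 to 58.8 CPM) and hypothalamus (32.8 to 66.9 and 28.6 to 44.6 CPM) the groups overlapped. Counts over the whole gene do not show whether a deleted part is missing, so the libraries are called KO-labelled throughout. The tissue labels fitted 1 defining gene each: Amh reached 26.3 to 144 CPM in ovary, Hoxa11 180.2 to 265 CPM in uterus and Agrp 1.37 to 7.40 CPM in hypothalamus, against at most 1.11, 0.37 and 0.453 CPM in any library of another tissue, and growth hormone Gh took at least 143200 CPM in pituitary and at most 106 CPM elsewhere.

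In each tissue 1 KO-labelled library lay apart from the other 5 on the first principal component. The other 5 scored -39.4 to -6.94 in ovary, -30.5 to 6.19 in uterus and -26.9 to 7.87 in pituitary. In the hypothalamus they were spread more widely, from -43.3 to 27.4. The libraries that lay apart were number 2 in the ovary, 1 in the uterus, 1 in the pituitary and 2 in the hypothalamus, with component scores of 97.2, 65.6, 45.7 and 61.7. In 3 of them the deviations of genes ran against transcript length (rank correlations of -0.589, -0.402 and -0.516 in ovary, uterus and pituitary), and in the hypothalamus they ran with GC content (0.721). Strong trends in the hypothalamus were not limited to that library. Correlations with length were -0.628 in KO-labelled library 1, -0.399 in WT library 3 and 0.646 in WT library 2. WT library 1 ran against GC content (-0.633). Ribosomal Rn45s took 3.87% of the counts of the ovary library and 1.21% of those of the hypothalamus library, and at most 0.287% in any other library of those 2 tissues. The C1q and Aif1 transcripts are short, so several differences below are also given with each library's trends over length and GC content removed. The others are given only as counted.

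Il34 encodes the ligand of CSF1R that neurons are known to make. Ovarian Il34 stood at 13.9, 12.1 and 10.3 CPM in KO-labelled libraries, against 6.05, 3.26 and 5.99 CPM in WT libraries. In the uterus it had 4.26, 2.81 and 2.64 CPM in KO-labelled libraries, against 2.61, 2.10 and 1.84 CPM in WT libraries. In the pituitary, where the fewest reads lay behind it (22 to 26 counts a library in KO-labelled and 11 to 17 in WT), it had 2.13, 2.04 and 1.72 CPM, against 0.990, 1.26 and 1.09 CPM in WT libraries. Every KO-labelled library lay above every WT library of its tissue in these 3 tissues, narrowly so in the uterus, where the lowest KO-labelled and the highest WT library were 2.64 and 2.61 CPM.

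In the hypothalamus Il34 had 25.9, 28.2 and 26.3 CPM in KO-labelled libraries, against 15.3, 13.1 and 23.6 CPM in WT libraries. The groups did not overlap here either, and WT library 3 lay close to the KO-labelled ones, with the other two WT libraries well below. With counts scaled by library totals alone, or by the RLE method of DESeq2, Il34 kept this order in all 4 tissues. Among 15077 genes with a mean of at least 1 CPM, 8 (0.0531%) had all KO-labelled above all WT libraries in each of the 4 tissues, and 9 (0.0597%) had all KO-labelled below. The 8 were Il34, Cacnb3, Dgkz, H2-T23, Pigz, Psmb9, Ptger1 and Rundc3a. Since Il34 was chosen with these values known, its place among them is a description.

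**Figure D1:**
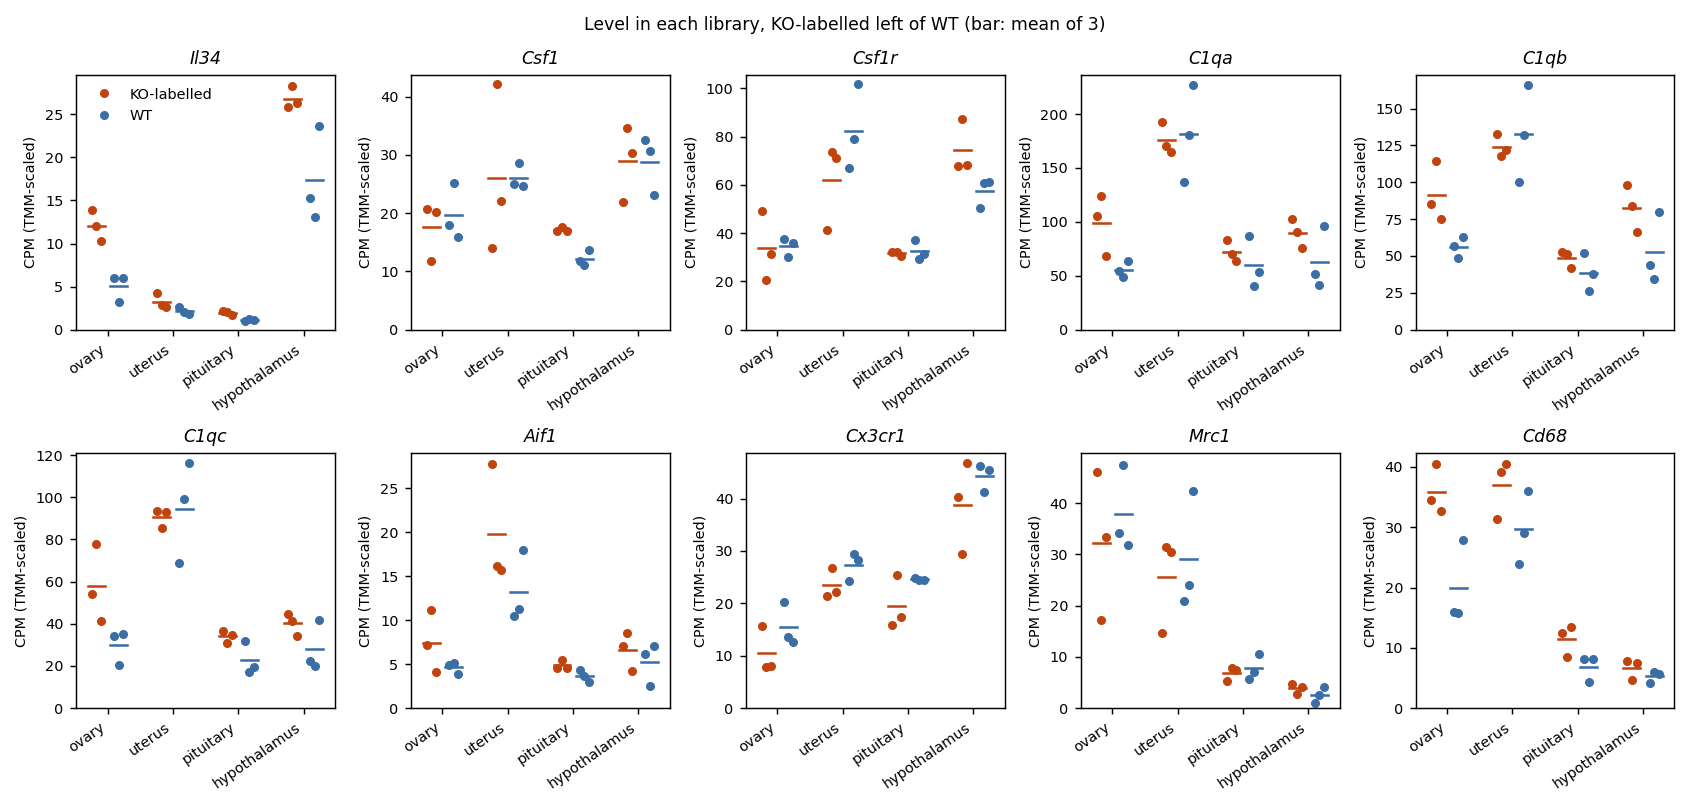
Level of each gene (y axis, CPM after TMM scaling) in the 4 tissues (x axis), with 1 point per library, KO-labelled left of WT, and a bar at the mean of 3. Il34 points of KO-labelled libraries lie above those of WT in each tissue, with the lowest at 2.64 CPM and the highest WT at 2.61 CPM in the uterus, while Csf1 points overlap in all tissues but the pituitary.

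The Il34 log2 fold change of KO-labelled over WT was 1.24 (SE 0.31) in ovary, 0.56 (SE 0.30) in uterus, 0.78 (SE 0.47) in pituitary and 0.59 (SE 0.28) in hypothalamus. With length and GC trends removed these values were 0.94, 0.40, 0.52 and 0.20, with the hypothalamic value the most reduced. None passed the edgeR quasi-likelihood test adjusted over all genes of the tissue (adjusted p = 0.597, 0.483, 0.491 and 0.588). In the authors' deposited table the log2 fold changes of Il34 were 1.01 in ovary, 0.38 in uterus, 0.28 in pituitary and 0.46 in hypothalamus, with adjusted p of 0.0577 in the ovary and none listed in the pituitary. A fit with 1 KO-labelled over WT difference shared by all tissues, added after the values were seen, gave Il34 0.81 (SE 0.15) on the log2 scale. It called 98 of 16971 genes (0.577%), Il34 among them (edgeR adjusted p = 0.0139). The fit took the 24 libraries as independent. Whether several tissues came from 1 animal is not given, so its p-values may count an animal more than once. With length and GC trends removed Il34 was at 0.53 (adjusted p = 0.110), and without the 4 libraries that lay apart at 0.74 (adjusted p = 0.112), both times outside the calls.

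The other ligand gene, Csf1, differed less between tissues. In the ovary it had 20.7, 11.9 and 20.2 CPM in KO-labelled libraries and 17.9, 25.2 and 15.9 CPM in WT libraries. In the uterus it had 14.03, 42.3 and 22.1 CPM in KO-labelled libraries, which spanned the WT libraries at 25.03, 28.6 and 24.6 CPM. Both tissues overlapped, and the lowest KO-labelled library in each (number 2 in ovary, 1 in uterus) was the one that lay apart.

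In the pituitary Csf1 had 16.9, 17.6 and 16.9 CPM in KO-labelled libraries, against 11.9, 11.03 and 13.6 CPM in WT libraries, with no overlap. The log2 fold change there was 0.46 (SE 0.20, edgeR adjusted p = 0.382), and 0.30 with trends removed. Scaled by library totals alone, which moved the median of all genes in this tissue to -0.21 on the log2 scale, the pituitary groups of Csf1 overlapped. In the hypothalamus Csf1 had 21.9, 34.6 and 30.4 CPM in KO-labelled and 32.6, 30.7 and 23.1 CPM in WT libraries, which overlapped.

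Set side by side per kilobase of transcript, the share of Il34 in the sum of both ligands differed between tissues. It was 73.3, 65.5 and 66.8% in KO-labelled and 52.2, 49.8 and 70.4% in WT hypothalamus. In the ovary it was 60.96, 70.3 and 54.3% in KO-labelled libraries, against 43.9, 23.1 and 46.7% in WT libraries. By this measure Il34 was the larger part in all 3 KO-labelled ovaries and the smaller part in all 3 WT ovaries. The highest of these came from KO-labelled library 2, which lay apart. Each gene was divided by the length of its longest coding transcript (1796 bases for Il34 and 4176 for Csf1). The share therefore depends on that choice, and a length trend within a library acts on it. In the pituitary the share was 22.7, 21.3 and 19.1% in KO-labelled and 16.2, 20.97 and 15.6% in WT libraries. In the uterus it was 41.4, 13.4 and 21.8% in KO-labelled and 19.5, 14.6 and 14.8% in WT libraries, where the highest value came from the KO-labelled library that lay apart and had the lowest Csf1. Both groups overlapped in uterus, pituitary and hypothalamus.

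Across tissues, the mean Il34 level was 13.6 times higher in the highest than in the lowest tissue among KO-labelled libraries and 15.6 times among WT libraries. The order was hypothalamus, ovary, uterus and pituitary in both genotypes, and within each genotype no library of one tissue reached a library of the next. Across genotypes they did, as with KO-labelled ovary at up to 13.9 CPM and WT hypothalamus from 13.1 CPM. For Csf1 the same ratio was 1.69 among KO-labelled and 2.36 among WT libraries, with hypothalamus, uterus, ovary and pituitary in that order. Its neighbours in that order overlapped, except WT ovary and WT pituitary. These ratios and overlaps rest on 1 TMM scale over 4 unlike tissues and depend on it, most of all for the pituitary. The lowest KO-labelled pituitary had 1.72 CPM of Il34 on that scale and 1.09 CPM by library totals alone. For the hypothalamus these values were 25.9 and 26.4 CPM. Over the 24 libraries the 5 genes whose log2 CPM ran most like Il34 were Ppp1r16b, Plekhm2, Rabl6, Gbx2 and Itpka (Pearson r of 0.94 to 0.95), and those most like Csf1 were Usp54, Fnbp1, Akap12, Lphn1 and Tln2 (0.82 to 0.84). These r values rest largely on differences between tissues, which libraries of 1 tissue share.

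The receptor gene Csf1r was high in the uterus and hypothalamus and lower in the ovary and pituitary. In the uterus it had 41.4, 73.5 and 71.2 CPM in KO-labelled libraries and 67.02, 78.96 and 102 CPM in WT libraries, which overlapped. In the hypothalamus it had 67.7, 87.5 and 68.1 CPM in KO-labelled libraries, all above the WT libraries at 50.6, 60.9 and 61.2 CPM. There the log2 fold change was 0.33 (SE 0.24), and 0.20 with trends removed. In the ovary it had 49.3, 20.8 and 31.4 CPM in KO-labelled and 37.7, 29.9 and 36.03 CPM in WT libraries, and in the pituitary 32.2, 32.1 and 30.7 and 37.2, 29.2 and 31.5 CPM, both with overlap. Csf1r shares 15.1% of its exon bases with Hmgxb3 on the other strand, and the library kit does not mark strand, so reads there cannot be assigned to either gene. Il34 shares 3.83% of its exon bases with the antisense gene Gm15895 and 1.12% with Gm15894, and Cx3cr1 shares 1.73% with Gm33858 on the other strand.

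The libraries' deviations from their group means were used to see which genes varied with Csf1r within groups. The 10 most alike were Dpp6, H2-Q2, Spsb1, Tnfrsf1b, Nell2, Itgam, Fbln1, H6pd, Rassf4 and Chl1 (Pearson r of 0.79 to 0.86, n = 24 libraries). Itgam, at rank 6, encodes CD11b, an integrin chain of macrophages and microglia. Over the levels themselves, the 5 most alike were Scn4b, Slc2a12, Slc13a5, Ankrd13b and Pygm (r of 0.88). Among the members, Mrc1, Csf1 and Cx3cr1 deviated most like Csf1r (r of 0.57, 0.53 and 0.46). The C1q genes (0.10 to 0.16), Cd68 (0.17), Il34 (-0.09) and Aif1 (-0.18) did little. Il34 and Csf1 deviated in opposite directions (-0.51). The libraries that lay apart and their length trends enter all of these values.

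**Figure D2:**
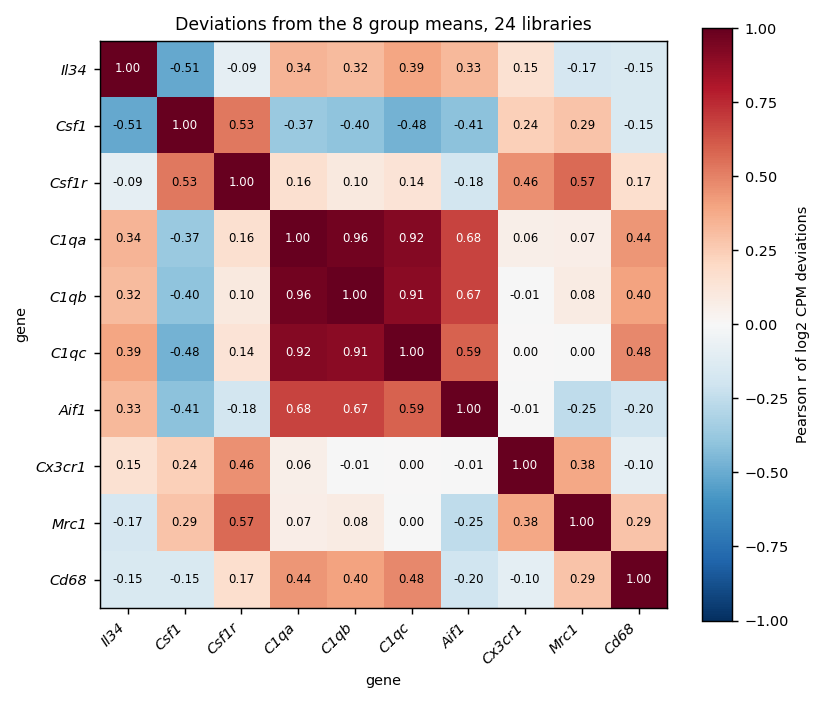
Pearson r between the deviations of log2 CPM from the 8 group means, for each pair of the 10 genes over 24 libraries (both axes list the genes, red for positive and blue for negative r). C1qa, C1qb and C1qc form a block at 0.91 to 0.96 that Aif1 joins at 0.59 to 0.68, and Csf1r lies with Mrc1 and Csf1 instead.

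C1qa, C1qb and C1qc encode the A, B and C chains that together form C1q. They lie side by side on the minus strand of chromosome 4 (GRCm38: C1qb at chr4:136880129-136886187, C1qc at chr4:136889804-136893065 and C1qa at chr4:136895917-136898803), 18.7 Mb from Kdm4a at chr4:118136957-118180043. Whether DNA carried along with the Kdm4a allele reaches them was not tested. PU.1, the transcription factor of the macrophage lineage, binds a core that reads GAGGAA on either strand. Of the 10 genes 7 had an entry in the RefSeq promoter table, and 23.3% of all 32851 promoters in it held this core in the 250 bases before the start. The 3 windows free of annotated exons are shown because they set a C1q chain and a lysosomal macrophage marker beside a ligand gene, with each core in capitals (GRCm38.p6, minus strand, printed in the gene's direction, at chr4:136886201-136886450 for C1qb, chr11:69666171-69666420 for Cd68 and chr3:107760470-107760719 for Csf1).
C1qb: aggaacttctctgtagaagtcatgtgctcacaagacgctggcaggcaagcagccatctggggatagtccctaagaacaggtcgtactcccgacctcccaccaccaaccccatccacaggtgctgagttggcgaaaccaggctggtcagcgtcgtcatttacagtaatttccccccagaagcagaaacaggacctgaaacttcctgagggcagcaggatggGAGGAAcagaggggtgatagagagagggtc
Cd68: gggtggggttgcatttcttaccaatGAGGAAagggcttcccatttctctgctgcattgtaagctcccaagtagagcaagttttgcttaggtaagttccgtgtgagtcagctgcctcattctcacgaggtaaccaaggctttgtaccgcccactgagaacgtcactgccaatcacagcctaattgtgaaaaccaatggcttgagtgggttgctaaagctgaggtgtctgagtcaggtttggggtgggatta
Csf1: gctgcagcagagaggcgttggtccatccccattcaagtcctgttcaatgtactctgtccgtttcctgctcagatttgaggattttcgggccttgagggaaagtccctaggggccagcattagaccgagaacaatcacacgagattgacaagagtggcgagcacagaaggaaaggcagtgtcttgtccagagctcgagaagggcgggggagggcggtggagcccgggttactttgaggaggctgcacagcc
The core begins 30 bases before the start in C1qb and 225 bases before it in Cd68, and these letters are not in the Csf1 window. In the other 4 members with an entry they were found in C1qc, Aif1 and Mrc1 and not in Cx3cr1. A match describes the letters only.

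C1qa had the highest counts of the 10 genes, up to 4481 in a library. In the ovary C1qa had 106, 124 and 68.4 CPM in KO-labelled libraries, against 54.5, 49.2 and 63.4 CPM in WT libraries. C1qb had 85.5, 115 and 74.8 CPM in KO-labelled ovaries, against 56.6, 48.6 and 62.8 CPM in WT ovaries. C1qc had 54.03, 78.1 and 41.1 CPM in KO-labelled ovaries, against 34.3, 20.7 and 35.2 CPM in WT ovaries. For all 3 genes the KO-labelled ovaries lay above the WT ones without overlap, and KO-labelled library 2, which lay apart, was the highest.

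The ovarian log2 fold changes were 0.83 (SE 0.25) for C1qa, 0.71 (SE 0.22) for C1qb and 0.94 (SE 0.31) for C1qc. With length and GC trends removed they were 0.33, 0.24 and 0.47. None passed the edgeR quasi-likelihood test (adjusted p = 0.597 for each). In bulk tissue, more or fewer cells of a type cannot be told apart from more or less RNA per cell. Summed over 20 other tissue macrophage genes, the level was 716 to 882 CPM in KO-labelled ovaries and 455 to 652 CPM in WT ovaries, without overlap, and 0 of the 18 tested passed. The highest genes in this sum were Lyz2, Ctss and Mpeg1, with means of 270, 122 and 99.5 CPM in KO-labelled and 156, 84.4 and 86.3 CPM in WT ovaries. The groups of each of them overlapped. Of the 18, 15 had positive log2 fold changes, and Mertk, Siglec1 and Lyve1 negative ones. The part of these 20 genes in the C1q difference was not tested.

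In the uterus, where C1q was highest, the 3 genes summed to 419, 374 and 379.9 CPM in KO-labelled libraries, which lay inside the span of the WT libraries at 306, 411 and 509.6 CPM. The uterine log2 fold changes ran from -0.10 to -0.05, and from -0.28 to -0.24 with trends removed. In the pituitary the sum was 172, 152 and 140.2 CPM in KO-labelled and 171, 83.6 and 111 CPM in WT libraries. In the hypothalamus it was 245, 216 and 177 CPM in KO-labelled and 117, 95.8 and 217 CPM in WT libraries. Both overlapped, each time because 1 WT library (number 1 in the pituitary, 3 in the hypothalamus) stood among the KO-labelled ones.

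The hypothalamic log2 fold changes of 0.47 for C1qa, 0.62 for C1qb and 0.48 for C1qc were -0.03, 0.17 and 0.04 with trends removed. In the pituitary they were 0.23, 0.29 and 0.55 as counted, and -0.08, 0.03 and 0.29 with trends removed. Of the 3 genes, C1qa held 39.8 ± 3.08% of the summed CPM in KO-labelled and 39.4 ± 2.04% in WT ovaries, and 45.04 ± 1.37% in KO-labelled and 44.4 ± 0.460% in WT uteri (SD, n = 3 each). Within groups the 3 genes deviated together (r of 0.96, 0.92 and 0.91, n = 24 libraries).

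Relative to Csf1r, the summed C1q level was 4.98, 15.2 and 5.88 times the Csf1r CPM in KO-labelled ovaries, against 3.86, 3.96 and 4.48 in WT ovaries. KO-labelled library 2, which lay apart, gave the highest of these, and the lowest KO-labelled ovary still lay above the highest WT one. In the uterus the ratio was 10.1, 5.08 and 5.34 in KO-labelled and 4.56, 5.21 and 5.01 in WT libraries, and again the library that lay apart was highest. C1qa is 1040 bases long and Csf1r 4701, so a length trend within a library acts on this ratio.

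**Figure D3:**
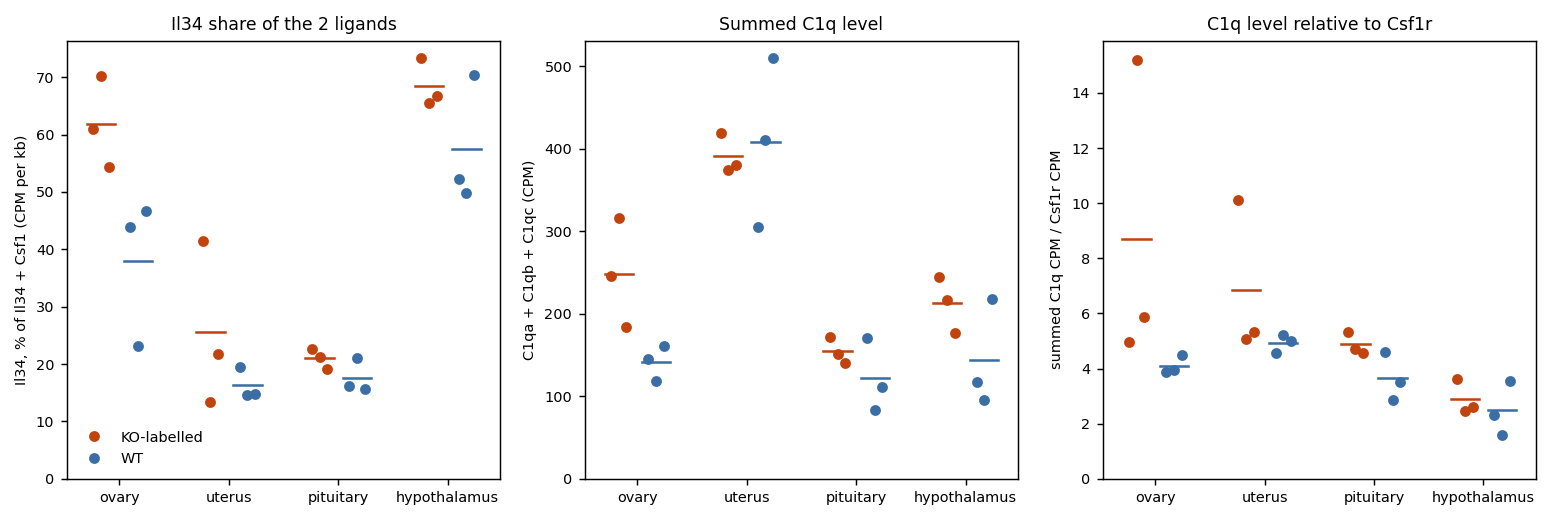
Left, Il34 as a percentage of Il34 plus Csf1 (CPM per kb); middle, the summed CPM of C1qa, C1qb and C1qc; right, that sum divided by the Csf1r CPM, each with 1 point per library, KO-labelled left of WT, and bars at the means. The ovary separates the genotypes in all 3 panels, and the KO-labelled ovary at 15.2 and the KO-labelled uterus at 10.1 in the right panel are libraries that lay apart from the rest of their tissue.

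Aif1 encodes IBA1, an actin-binding protein used to stain macrophages and microglia. It had 27.8, 16.1 and 15.7 CPM in KO-labelled uteri, against 10.4, 11.3 and 17.98 CPM in WT uteri. The groups overlapped, and the highest value came from KO-labelled library 1, which lay apart. KO-labelled ovaries had 7.14, 11.1 and 4.07 CPM and WT ovaries 4.90, 5.18 and 3.84 CPM, with overlap. In the pituitary its KO-labelled libraries at 4.59, 5.50 and 4.53 CPM all lay above the WT ones at 4.32, 3.63 and 3.01 CPM (log2 fold change 0.39, SE 0.32). In the hypothalamus it ran over 4.18 to 8.56 CPM in KO-labelled and 2.46 to 7.11 CPM in WT libraries. Its log2 fold changes of 0.68, 0.58, 0.39 and 0.29 in ovary, uterus, pituitary and hypothalamus were 0.20, 0.46, 0.31 and 0.05 with trends removed. Aif1 deviated with the C1q genes (r of 0.59 to 0.68).

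Cd68 encodes a lysosomal membrane protein of phagocytes. In the ovary it had 34.4, 40.5 and 32.7 CPM in KO-labelled libraries, all above the WT libraries at 16.00, 15.7 and 27.8 CPM. In the pituitary it had 12.5, 8.48 and 13.5 CPM in KO-labelled libraries, again all above the WT libraries at 8.10, 4.29 and 8.12 CPM. In the pituitary the gap between the groups was 8.48 against 8.12 CPM. The log2 fold changes were 0.85 (SE 0.27) in ovary and 0.72 (SE 0.29) in pituitary, and 0.53 and 0.59 with trends removed. In the uterus Cd68 had 31.3, 39.2 and 40.5 CPM in KO-labelled and 23.96, 28.97 and 36.01 CPM in WT libraries, and in the hypothalamus 4.67 to 7.85 and 4.23 to 6.01 CPM, both with overlap.

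Cx3cr1, the receptor of the chemokine fractalkine on microglia and monocytes, was the 1 member with a negative fold change in each tissue. KO-labelled ovaries had 15.7, 7.80 and 8.00 CPM, against 20.2, 13.6 and 12.6 CPM in WT ovaries. In the pituitary it had 15.9, 25.4 and 17.5 CPM in KO-labelled libraries and 24.8, 24.4 and 24.4 CPM in WT libraries, where KO-labelled library 2 lay above all of WT. In the uterus it had 21.4, 26.8 and 22.2 CPM in KO-labelled and 24.3, 29.5 and 28.2 CPM in WT libraries. In the hypothalamus, its highest tissue, it had 40.2, 29.5 and 46.8 CPM in KO-labelled and 46.2, 41.4 and 45.5 CPM in WT libraries. All 4 pairs of groups overlapped. The log2 fold changes were -0.56, -0.22, -0.36 and -0.23 in ovary, uterus, pituitary and hypothalamus, with SE of 0.15 to 0.35, and none passed. With trends removed they were -0.50, -0.14, -0.38 and -0.20.

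Mrc1, the mannose receptor CD206 of perivascular and other tissue macrophages, was higher in ovary and uterus than in pituitary and hypothalamus. It averaged 32.3 ± 14.5 CPM in KO-labelled and 37.8 ± 8.48 CPM in WT ovaries, and 25.5 ± 9.39 CPM in KO-labelled and 29.1 ± 11.7 CPM in WT uteri (SD, n = 3 each). In the pituitary it averaged 6.84 ± 1.32 CPM in KO-labelled and 7.78 ± 2.56 CPM in WT libraries, and in the hypothalamus 3.83 ± 1.01 and 2.51 ± 1.53 CPM (SD, n = 3 each). The genotypes overlapped in each tissue. Lymphatic and liver-type endothelium also make Mrc1. The summed level of 8 endothelial genes was 408 to 747 CPM in KO-labelled and 419 to 477 CPM in WT ovaries. In the uterus it was 450 to 658 and 551 to 647 CPM, and in the pituitary 193 to 249.8 and 153 to 199.8 CPM. The groups overlapped in each, with 0 of 8 passing. All 8 had positive log2 fold changes in the pituitary (median 0.46), where that of Mrc1 was -0.21. The part of endothelium in the Mrc1 levels was not tested.

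The order of the tissues, again on the TMM scale over all of them, was not shared by the macrophage genes. C1qa, C1qb, C1qc, Aif1 and Cd68 were highest in the uterus in both genotypes. For the C1q genes and Aif1 no uterine library reached down to a library of the next tissue of the same genotype. Cx3cr1 was highest in the hypothalamus and lowest in the ovary in both genotypes, apart from the neighbouring tissue of the same genotype each time. Mrc1 ran the other way, highest in the ovary, where it overlapped the uterus, and lowest in the hypothalamus. Per kilobase of transcript in the hypothalamus, C1qa stood at 86.2 CPM in KO-labelled and 60.5 CPM in WT libraries, Csf1r at 15.8 and 12.2, Il34 at 14.9 and 9.66, and Mrc1 at 0.712 and 0.467. In the ovary, per kilobase, C1qa stood at 95.5 CPM in KO-labelled and 53.6 CPM in WT libraries, Cd68 at 29.2 and 16.1, and Mrc1 at 6.01 and 7.03.

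Counted over the 10 genes, 0 passed the edgeR quasi-likelihood test at an adjusted p of 0.05 in any tissue. Over all genes tested the test called 0 of 14460 in ovary (0%), 52 of 14910 in uterus (0.349%), 6 of 14163 in pituitary (0.0424%) and 0 of 14788 in hypothalamus (0%). At an unadjusted p under 0.05 it called 1110, 1889, 1749 and 999 genes in these tissues, and DESeq2 called 62, 537, 49 and 8 at an adjusted p of 0.05. The difference between tissues in the KO-labelled over WT effect passed for 0 of the 10 and for 9 of 16971 genes (0.053%).

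Of the 10 genes, 5 had all KO-labelled above all WT libraries in the ovary, where 8.31% of all genes did so and 9.34% lay below. In the uterus it was 1 of 10, where 9.4% of all genes lay above and 10.1% below. In the pituitary it was 4 of 10, with 11.3% of all genes above and 8% below, and in the hypothalamus 2 of 10, with 8.09% above and 3.41% below. No member lay below in any tissue. Scaled by library totals alone, the pituitary count was 1 above (Il34) and 2 below (Csf1r and Cx3cr1), and the counts of the other tissues were the same. The list was selected on this contrast, so nothing is read from these shares.

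The median log2 fold change of the 10 genes was 0.69 in ovary, -0.06 in uterus, 0.34 in pituitary and 0.40 in hypothalamus, beside medians over all genes of 0.03, 0.01, 0.00 and 0.01. With length and GC trends removed the medians of the 10 were 0.22, -0.13, 0.16 and 0.05.

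**Figure D4:**
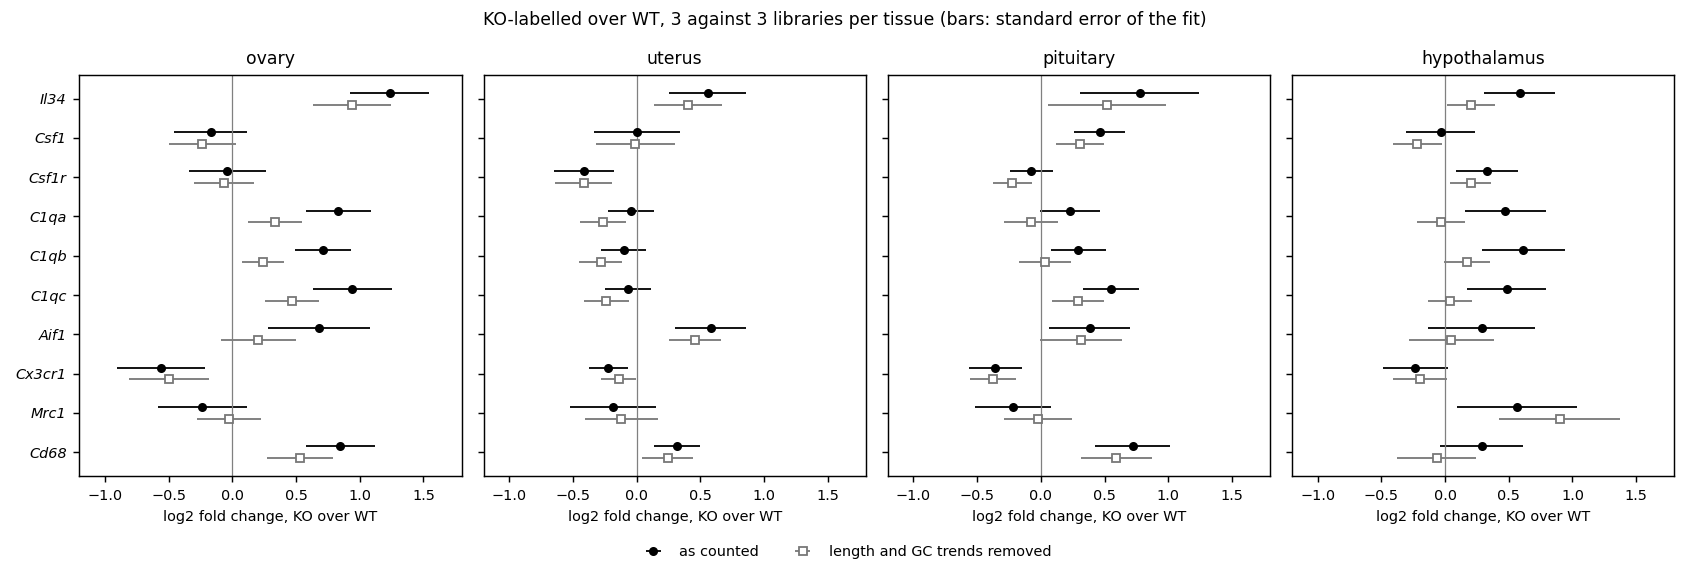
Log2 fold change of KO-labelled over WT (x axis) for the 10 genes (y axis) in each tissue, as counted (filled circles) and with length and GC trends removed (open squares), with standard errors of the fit as bars. The open squares of the C1q genes lie nearer to 0 in ovary, pituitary and hypothalamus, at 0.33 for C1qa in the ovary against 0.83 as counted, while Il34 stands at 0.94 there.

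Around the receptor, 17 genes of its signalling and of the macrophage lineage were followed, such as the transcription factor Spi1, the adaptor Tyrobp and Ptprz1, a further IL-34 receptor. In the uterus 1 of the 17 fell and 0 rose. In the ovary, pituitary and hypothalamus 0 passed in either direction. The gene that fell was Csf2ra, the alpha chain of the GM-CSF receptor, with 9.60, 11.6 and 12.7 CPM in KO-labelled uteri, against 23.6, 28.8 and 23.9 CPM in WT uteri (log2 fold change -1.17, SE 0.17, edgeR adjusted p = 0.0383). The call was lost without any 1 of the 3 WT uteri, at adjusted p of 0.121, 0.216 and 0.141.

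Csf2ra was also among the 9 genes whose KO-labelled libraries lay below WT in all 4 tissues. KO-labelled ovaries had 7.33, 7.87 and 6.10 CPM, against 11.2, 9.82 and 11.4 CPM in WT ovaries. In the pituitary it had 0.821, 2.36 and 1.79 CPM in KO-labelled libraries, against 3.33, 2.74 and 2.76 CPM in WT libraries. In the hypothalamus it had 2.36, 3.39 and 1.79 CPM in KO-labelled libraries, against 5.03, 7.38 and 7.39 CPM in WT libraries. With trends removed its log2 fold changes were -0.88 in ovary, -1.27 in uterus, -1.08 in pituitary and -1.87 in hypothalamus, each farther from 0 than as counted. The fit with 1 difference shared by all tissues, added after the values were seen, called Csf2ra too. Its shared log2 fold change was -1.002 (SE 0.152, edgeR adjusted p = 0.00255). With trends removed the shared value was -1.264 and the call was kept (edgeR adjusted p = 6.85e-05). Both p-values take the libraries of all tissues as independent, though they may share animals.

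The genes with the smallest p values in this list were Tyrobp and Spi1 in the ovary, Csf2ra in the uterus, Ptprz1 and Maf in the pituitary, and Csf2ra and Cebpa in the hypothalamus. Tyrobp had 18.7, 40.3 and 16.3 CPM in KO-labelled and 9.59, 8.65 and 13.9 CPM in WT ovaries (edgeR adjusted p = 0.597). Spi1, which encodes PU.1, had 7.68, 6.98 and 7.10 CPM in KO-labelled and 4.48, 4.48 and 4.21 CPM in WT ovaries (adjusted p = 0.597). Both separated the groups without passing, and so did Ptprz1 in the pituitary and Cebpa in the hypothalamus (log2 fold changes of -0.65 and 0.96). They were picked by p value, so nothing is read from this separation. Of all genes, 8.31% lay above in the ovary, 8% below in the pituitary and 8.09% above in the hypothalamus. Tyrobp was highest in the KO-labelled ovary that lay apart, and its log2 fold change of 1.22 was 0.57 with trends removed. Maf, at -0.48 in the pituitary, overlapped. The median log2 fold change of the 17 was 0.14, 0.10, -0.22 and 0.07 in ovary, uterus, pituitary and hypothalamus.

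Of 20 other tissue macrophage genes, 18, 18, 16 and 15 were tested in ovary, uterus, pituitary and hypothalamus, and 0 passed in any. Lgals3, the galectin-3 gene, had 62.6, 113 and 64.3 CPM in KO-labelled and 30.2, 35.6 and 41.7 CPM in WT ovaries, and 57.9, 39.99 and 46.02 CPM in KO-labelled and 21.5, 29.5 and 32.5 CPM in WT uteri, with no overlap in either. It was picked by p value, so nothing is read from this separation. Of all genes, 8.31% lay above in the ovary and 9.4% in the uterus. Lgals3 was highest in the library that lay apart in each tissue. Its log2 fold changes of 1.16 and 0.78 were 0.75 and 0.64 with trends removed. The median log2 fold changes of the tested genes of this list were 0.36, 0.03, -0.14 and -0.07. The macrophage genes Timd4 and Vsig4 had no count in any pituitary library. Next by p value were Fcer1g in the ovary (0.87) and Laptm5 in the uterus (0.54). In the pituitary Cd163 (-1.54) and Lyz2 (0.39), and in the hypothalamus Emr1, the F4/80 gene (-0.55), and Ctss (0.41) came first, with overlapping groups.

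Of 12 microglia genes 0 passed in any tissue. Their sum is not particular to microglia, since it was 789 to 901 CPM in KO-labelled and 750 to 946 CPM in WT uteri. In the hypothalamus it was 1750.1 to 2403 CPM in KO-labelled and 1038 to 2086 CPM in WT libraries. Most of this sum was the cystatin gene Cst3, at 1980.0, 1863 and 1380.0 CPM in KO-labelled and 931, 766 and 1683 CPM in WT hypothalami, with overlap. The microglia genes P2ry12, Gpr34 and P2ry13, named after their values were seen, had negative log2 fold changes there (-0.41, -0.64 and -0.27), and the other 9 had positive ones. Tmem119, a membrane protein gene of microglia, had 20.8, 23.5 and 17.6 CPM in KO-labelled and 13.1, 10.6 and 17.6 CPM in WT hypothalami, apart by a narrow margin. Of all genes, 8.09% lay above there. Its log2 fold change of 0.55 was 0.11 with trends removed. Cst3 was next there (0.59 as counted and 0.13 with trends removed) and among the first in the ovary (0.70 and 0.15) and pituitary (0.41 and 0.13). Trem2 came with it in the ovary (0.91 and 1.07), Sall1 and Trem2 led in the uterus (-0.53 and 0.56 as counted), and P2ry13 followed in the pituitary (-0.42). Of 10 other complement genes 0 passed in any tissue, and all 10 had positive fold changes in the ovary (median 0.27, and 0.18 with trends removed). Their sum there was 508 to 1409 CPM in KO-labelled and 683 to 855 CPM in WT ovaries, with overlap. The smallest p values were those of C3ar1 and C5ar1 in the ovary, C1qbp and Itgax in the uterus, C3 and Itgax in the pituitary, and Serping1 and C1s1 in the hypothalamus, with log2 fold changes of -0.52 to 1.05.

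Of the genes of blood cells, 1 passed in the pituitary. Chil3, a monocyte and neutrophil gene, had 0.246, 0.0785 and 0.0780 CPM in KO-labelled pituitaries, against 5.31, 5.55 and 1.92 CPM in WT pituitaries, and fell (log2 fold change -4.94, edgeR adjusted p = 0.0222). The call was lost without WT library 2, KO-labelled library 2 or KO-labelled library 3 (adjusted p = 0.111, 0.0544 and 0.0668). The summed level of 5 neutrophil genes there was 1.33 to 2.87 CPM in KO-labelled and 8.87 to 148 CPM in WT libraries, with 0 of 3 tested passing, and that of 5 monocyte genes, Chil3 among them, was 5.70 to 6.73 and 7.11 to 19.3 CPM. Their part in the pituitary values of Csf1, Aif1 and Cd68 was not tested. Of the dendritic, lymphocyte, mast cell, endothelial and neuronal lists, and of the monocyte and neutrophil lists outside the pituitary, 0 genes passed in any tissue. The neuronal sum in the hypothalamus, where neurons make Il34, was 3381 to 4670.1 CPM in KO-labelled and 4388 to 4947 CPM in WT libraries, which overlapped.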

How the data were processed

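Per the submitters' processing notes, the authors used FastQC, Trimmomatic, STAR, HTSeq and DESeq2 with the mouse build mm10; their settings are not stated there. The deposited tables hold the authors' counts per gene and library, unnormalised. The authors' deposited tables of KO against WT hold log2 fold changes and adjusted p-values. The kit did not mark strand, per the labels' protocols. RNA was from separate samples of each group, per the labels.

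From 24222 rows, 27 whose symbols had turned into dates were left out (0.122 to 0.392% of counts). Each tissue was fitted with edgeR 4.0.16 (R 4.3.3, TMM, filterByExpr, robust quasi-likelihood F test, Benjamini-Hochberg over all genes tested, threshold 0.05). The interaction and the shared difference used all 24 libraries, taken as independent. CPM came from TMM over 24 libraries. Trends over transcript length and GC content (GENCODE, matched for 95.2% of symbols) were removed as natural-spline offsets with 5 degrees of freedom each, per library. Likeness used log2 CPM with a prior count of 2. No replicate pair agreed within sampling noise (chi-square per degree of freedom of at least 10.5 in 24 pairs). Intervals between libraries reflect only 3 libraries a group.

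DESeq2 1.42.0, limma-voom (limma 3.58.1), RLE scaling, other filters, a replicate block, 1 fit over 24 libraries and leaving out each library were tried. Fits were tested on simulated counts. The 10 genes and the 11 other lists of 102 genes were chosen with earlier results of these data known. Named genes are the 10 members, Kdm4a, the 5 or 10 genes most alike, list genes past the threshold and the 2 smallest p values of a list described in each tissue, except 1 result that is not reported here. Same-numbered KO-labelled and WT libraries deviated together with r of -0.30 to 0.25, so the numbers were not taken to pair them.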

Additional observations from a re-analysis of the deposited data

How the results depend on the processing

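No member passed in any tissue under the alternatives run, except Il34 in the ovary with DESeq2 (log2 fold change 1.25, adjusted p = 0.0493), which made 1 member called; over its other ovary fits its adjusted p was up to 0.923. Over all alternatives the Il34 log2 fold change was 0.94 to 1.37 in ovary, 0.32 to 0.71 in uterus, 0.52 to 0.88 in pituitary and 0.20 to 0.87 in hypothalamus. Genes called in ovary, 0 as reported, were 1 with no filter, 62 with DESeq2, 34 in 1 fit over 24 libraries and 1 with length and GC trends removed. In uterus, 52 became 108 with no filter, 537 with DESeq2 and 93 with trends removed. In pituitary, 6 became 16 with no filter, 49 with DESeq2, 1 with limma-voom and 33 with the replicate block. In hypothalamus, 0 became 8 with DESeq2 and 1 with trends removed. For the interaction, 9 became 4 with RLE scaling, 168 with DESeq2, 5 with limma-voom and 1 with the replicate block. For the shared difference, 98 became 1102 with DESeq2 (3 members), 206 with limma-voom (2 members), 27 with trends removed (0 members) and 8 without the 4 libraries that lay apart (0 members). Il34 there was 0.53 with trends removed and 0.74 without those 4 libraries, losing its call both times. The cause of these shifts was not tested.

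Leaving out 1 library at a time, genes called were 0 to 2 in ovary, 0 to 171 in uterus, 1 to 10 in pituitary, 0 in hypothalamus, 2 to 23 for the interaction and 11 to 423 for the shared difference, with 0 members called per tissue and for the interaction. The shared difference then called 1 to 3 members, and Il34 stayed called at 0.73 to 0.90. Numbers did not pair the samples; the replicate block called no member, and the Csf2ra call in uterus was lost under it (adjusted p = 0.0657) and in 1 fit over 24 libraries (0.0888). Chil3 in pituitary was lost with limma-voom (0.0784) and in that fit (0.270). Scaling by library totals alone moved the median of all pituitary genes to -0.21 on the log2 scale. Depth limits Il34 in the pituitary most, with 11 to 26 counts a library.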
